A study of Mus musculus with 12 samples.

Results

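Bst1, Cd38 and Nampt encode enzymes that consume and remake the cofactor NAD, and their rows were read by symbol from a count table of 57010 mouse genes in 12 libraries. They are 3 genes, chosen by earlier results of these same libraries (the genotype difference of Bst1 and the levels of Cd38 and Nampt), so their own levels and fold changes are given as a description, with no test. The libraries hold polyA RNA of preosteoclasts, which are bone marrow cells grown for 2 days with M-CSF and RANKL, the cytokines that start osteoclast formation. The study asked how the loss of LSD1, a histone demethylase encoded by Kdm1a, changes these cells in female mice with ligature-induced periodontitis. LSD1WT and LSD1cKO mice were compared in 3 cultures, namely ligated mandible, ligated femur and unligated femur (ligated or unligated refers to the mouse), with 2 libraries in each of the 6 conditions. In LSD1cKO mice a floxed Lsd1 gene is deleted by LysM-Cre, which is driven by the Lyz2 gene of myeloid cells, so cells of other lineages in a bulk culture keep LSD1. Silk ligatures had been in place for 7 days on the maxillary second molars of the ligated mice, and the mice are given as 2 months old in the design of the series, although the methods for the sequencing give another age. The libraries came from 9 mice, 5 LSD1WT and 4 LSD1cKO, and 3 of them are represented at both sites. The methods call the genotypes Lsd1LysM-WT and Lsd1LysM-cKO, and which of the alleles the LSD1WT mice carry is not given in the sources used here.

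BST1, also called CD157, and CD38 are related ectoenzymes that sit at the cell surface and split NAD into nicotinamide and ADP-ribose or its cyclic form. Cyclic ADP-ribose is a messenger that opens ryanodine receptors, calcium channels of internal stores, and CD38 has long been studied in osteoclasts for this reason. NAMPT is the rate-limiting enzyme of the salvage route, which turns the released nicotinamide back towards NAD.

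Total counts per library ran from 21375805 to 32526751, with a median of 26364586, and levels are given as CPM, a gene's counts relative to the total of its library after TMM scaling, which evens out differences in composition between libraries. Kdm1a was at 61.2 to 71.3 CPM in LSD1WT libraries and at 15.6 to 24.3 CPM in LSD1cKO libraries (log2 fold change -1.82 ± 0.11, standard error; adjusted p = 3.56e-05, edgeR quasi-likelihood test, adjusted by Benjamini-Hochberg over all genes tested). Lyz2, the gene behind the Cre driver, was present in every library at 1232 to 35330.1 CPM. LSD1WT replicate 2 stood apart in both femur cultures. The summed level of 12 osteoclast genes was 168.7 CPM in the ligated and 239.4 CPM in the unligated one, against 11686 to 41348 CPM in the other 10 libraries, so the defining markers of the labelled cell type were nearly absent there. The sum of 8 macrophage genes was highest in the same pair of libraries, at 9566 and 7995 CPM, against 1698 to 4429 CPM elsewhere. The mandible LSD1WT libraries differed from each other by a biological coefficient of variation of 0.0246 only, against 0.0965 to 0.716 in the other conditions, and one of them, replicate 3, is called femur in its library name. It was kept as mandible by its title.

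Bst1 (ENSMUSG00000029082) and Cd38 (ENSMUSG00000029084) lie next to each other on chromosome 5 and are transcribed in the same direction. A stretch of the first exon of each is printed because it holds the longest run shared by the aligned coding sequences, which matters for whether reads of one gene could be counted for the other. Capitals mark bases that are identical in the alignment. The stretches lie on the plus strand of GRCm38, that of Bst1 at chr5:43819016-43819087 (coding positions 90 to 161) and that of Cd38 at chr5:43869037-43869108 (coding positions 162 to 233), and were read from GENCODE release vM21 transcripts.
Bst1: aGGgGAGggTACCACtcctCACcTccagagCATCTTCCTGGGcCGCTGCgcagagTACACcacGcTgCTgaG
Cd38: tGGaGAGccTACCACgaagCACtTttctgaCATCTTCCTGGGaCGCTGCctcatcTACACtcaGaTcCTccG
In this window 43 of 72 bases were identical, and the longest identical run in the whole alignment was 12 bases. Over the coding sequences, of 933 bases in Bst1 and 912 bases in Cd38, 468 of 794 aligned bases were identical (58.9%). No other gene matched the coding sequence of Bst1, Cd38 or Nampt over 100 bases or more at 85% identity or more. Fbxl5, the gene on the other side of Bst1, shares 127 exon bases with it on the opposite strand, and whether the counting used strand is not given in the sources used here.

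Bst1 was higher in LSD1cKO than in LSD1WT preosteoclasts from every culture. In ligated mandible the level was 3.96 and 4.0 CPM in the LSD1WT libraries (97 and 109 counts) and at 31.4 and 42.5 CPM in the LSD1cKO libraries (915 and 1376 counts). In ligated femur the LSD1WT libraries held 7.73 and 5.34 CPM and the LSD1cKO libraries 62.9 and 73.1 CPM. In unligated femur the LSD1WT libraries held 8.25 and 3.93 CPM and the LSD1cKO libraries 53.6 and 54.8 CPM. The 6 LSD1cKO libraries were thus all above the 6 LSD1WT libraries, and the lowest of them was 3.81 times the highest LSD1WT library. The condition means were 3.98 ± 0.0294 and 37.0 ± 7.85 CPM in mandible, 6.53 ± 1.69 and 68.0 ± 7.21 CPM in ligated femur, and 6.09 ± 3.05 and 54.2 ± 0.823 CPM in unligated femur (LSD1WT then LSD1cKO, SD, n = 2). The ratios of these means were 9.29 in mandible, 10.4 in ligated femur and 8.90 in unligated femur.

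**Figure D1:**
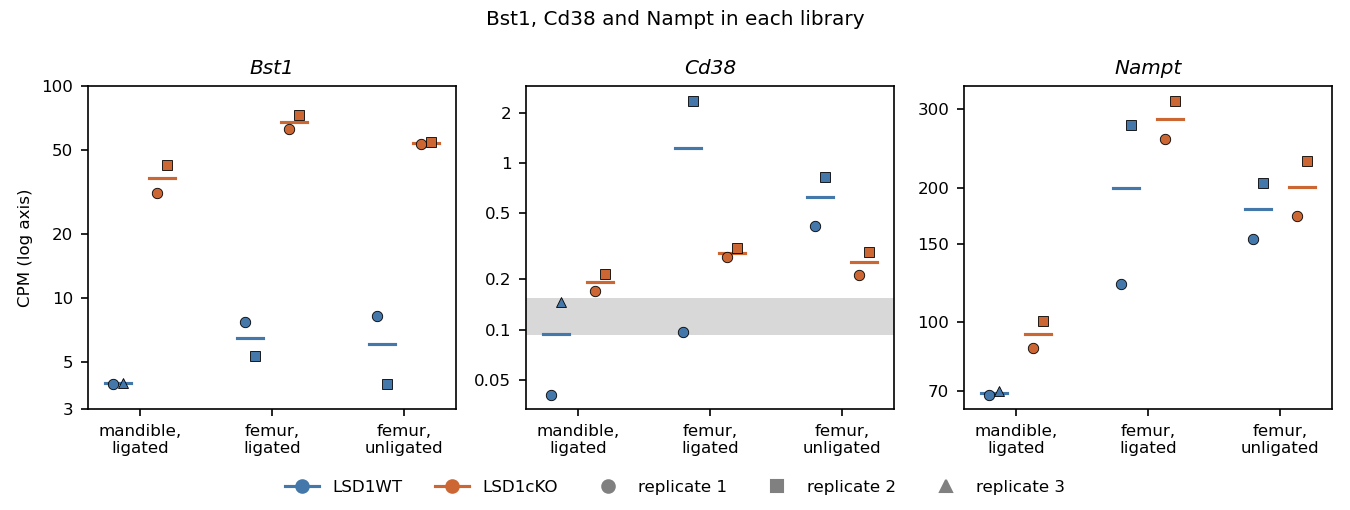
CPM on log axes of Bst1, Cd38 and Nampt in each of the 12 libraries by culture and genotype; symbols are libraries, bars are means of 2, and the grey band in the Cd38 panel is the level of 3 counts, 0.0927 to 0.154 CPM. Bst1 separated the genotypes in every culture (3.93 to 8.25 against 31.4 to 73.1 CPM), Cd38 was high in LSD1WT femur replicate 2, and Nampt was lowest in mandible.

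The fitted log2 fold change of Bst1 was 3.25 ± 0.19 over the 3 cultures (standard error), and 3.21 ± 0.38, 3.38 ± 0.38 and 3.15 ± 0.37 in ligated mandible, ligated femur and unligated femur. Without both LSD1WT femur replicate 2 libraries it was 3.08 over the 3 cultures, 3.22 in ligated femur and 2.72 in unligated femur. Across all 15425 genes tested, 462 were called higher in LSD1cKO over the 3 cultures (3.00%) and 82 lower (0.532%), at an adjusted p under 0.05. Bst1 was among the former, which is part of how it was chosen, and Cd38 and Nampt were in neither group. As the 3 genes were chosen from these same libraries, this is a description and not a test of them. Genes that like Bst1 were higher in every LSD1cKO library than in every LSD1WT library numbered 306 (1.98%), and those lower in every LSD1cKO library 123 (0.797%).

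Bst1 also differed between sites within a genotype. Its mean level in ligated femur was 1.64 times that in mandible in LSD1WT and 1.84 times in LSD1cKO, with no overlap of the libraries in either genotype. The LSD1WT mandible libraries include replicate 3, which is called femur in its library name. With 2 libraries on each side a lack of overlap often arises by chance, and its share over all genes is not given here. This holds for every comparison of 2 with 2 libraries in this report. Ligated femur was at 1.26 times unligated femur in LSD1cKO, again with no overlap, and at 1.07 times in LSD1WT, where the libraries overlapped and the ratio was 0.937 without the replicate 2 libraries. In LSD1WT the lowest and the highest library, 3.93 and 8.25 CPM, were both unligated femur.

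In mixed marrow cultures a difference in the number of cells of one type cannot be told apart from a difference in RNA per cell. BST1 is known from stromal cells, early B cells and myeloid cells including neutrophils, so the markers of these cells are given beside it. The summed level of 10 neutrophil genes was 155.4 to 155.5 CPM in LSD1WT and 140 to 166 CPM in LSD1cKO mandible libraries, which overlapped. Over all libraries it ran from 89.5 to 280 CPM in LSD1WT and from 140 to 306 CPM in LSD1cKO, and 0 of 9 genes tested were called (median log2 fold change 0.35). The 8 stromal genes summed to 0.663 to 42.9 CPM in LSD1WT and 2.59 to 10.8 CPM in LSD1cKO libraries, with 0 of 6 tested called and a median of -0.93. In mandible they did not overlap, at 42.8 to 42.9 CPM in LSD1WT and 5.25 to 10.8 CPM in LSD1cKO. The 10 B cell genes summed to 9.03 to 224 CPM in LSD1WT and 9.93 to 48.1 CPM in LSD1cKO libraries, with Igll1 at 0 in all libraries, 0 of 4 tested called and a median of 0.95. In mandible their sum was higher in LSD1cKO with no overlap, at 9.03 to 9.14 CPM in LSD1WT and 9.93 to 11.7 CPM in LSD1cKO. The most abundant of them, Ighm, overlapped there, at 7.88 and 8.26 CPM in LSD1WT against 7.76 and 9.98 CPM in LSD1cKO. Cd79b did not, at 0.939 and 0.514 CPM against 1.41 and 1.30 CPM. The T and NK cell list was at 0.0414 to 5.38 CPM in LSD1WT and 1.58 to 3.30 CPM in LSD1cKO libraries, with Cd3d, Cd3e, Cd3g and Ncr1 at 0 in LSD1WT, 0 of 1 tested called and a log2 fold change of -0.38. Osteoclast genes (0 of 12 called, median -0.32) and macrophage genes (0 of 8 called, median -0.31) did not pass either. Both LSD1WT femur replicate 2 libraries, lowest in osteoclast and highest in macrophage genes, are part of these fits. Counts for the marker lists without them are not given here, so the lack of calls does not show that the genotypes were alike. In mandible the osteoclast sum was 26409 to 26535 CPM in LSD1WT and 14895 to 15030 CPM in LSD1cKO, and the T and NK cell sum was 4.15 to 4.16 and 3.09 to 3.30 CPM, again with no overlap. At an unadjusted p under 0.05, edgeR gave 1 of 9 neutrophil and 2 of 4 B cell genes higher and 1 of 8 macrophage genes lower. The stromal, T and NK cell and osteoclast lists gave 0 genes. Of all genes tested, 8.31% were higher and 7.76% lower at this threshold. The part of these cells in the level of Bst1 was not tested.

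Interferon response genes moved with the genotype. Of 10 such genes, 9 were called higher in LSD1cKO over the 3 cultures by edgeR (median log2 fold change 2.40), and their summed level was 24.2 to 607 CPM in LSD1WT and 41.2 to 2058 CPM in LSD1cKO libraries. By culture the sum was 24.2 to 26.6 CPM in LSD1WT and 41.2 to 107 CPM in LSD1cKO mandible, 116 to 607 and 1637 to 2058 CPM in ligated femur, and 212 to 257 and 982 to 1060 CPM in unligated femur. It thus separated the genotypes within each culture, as Bst1 did, and its part in the level of Bst1 was not tested.

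Cd38 was close to the detection limit in nearly all libraries. Its counts in mandible were 1 and 4 in LSD1WT against 5 and 7 in LSD1cKO, or 0.0408 and 0.147 against 0.172 and 0.216 CPM. The ligated femur gave 3 and 46 counts in LSD1WT against 7 and 7 in LSD1cKO, or 0.0970 and 2.36 against 0.272 and 0.307 CPM. The unligated femur gave 11 and 20 counts in LSD1WT against 6 and 8 in LSD1cKO, or 0.420 and 0.828 against 0.214 and 0.293 CPM. The highest 2 libraries were thus LSD1WT replicate 2 of the ligated and of the unligated femur, the same pair in which osteoclast genes were nearly absent. LSD1cKO libraries were above LSD1WT in mandible, below in unligated femur, and between the LSD1WT libraries in ligated femur. A count of 3 corresponded to 0.0927 to 0.154 CPM, depending on the library. LSD1WT mandible replicate 1 and LSD1WT ligated femur replicate 1 did not exceed 3 counts. LSD1WT mandible replicate 3, with 4 counts, was just above its own level of 0.110 CPM.

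The ratio of summed Cd38 counts, LSD1cKO to LSD1WT and corrected for library size, was 2.02 in mandible (95% exact interval 0.663 to 7.32, 12 against 5 counts). It was 0.297 in ligated femur (0.151 to 0.546, 14 against 49 counts) and 0.411 in unligated femur (0.202 to 0.795, 14 against 31 counts). These intervals cover counting error only. Without LSD1WT replicate 2 the ratio in ligated femur was 2.97 (0.830 to 16.1, 14 against 3 counts), which turns its direction. The fitted log2 fold changes were -0.98 ± 0.74 over the 3 cultures, 0.99 ± 1.34 in mandible, -2.04 ± 1.15 in ligated femur and -1.28 ± 1.15 in unligated femur. Without LSD1WT ligated femur replicate 2 the value over the 3 cultures was 0.048 and without both replicate 2 libraries 0.49, so no direction over the cultures can be given for Cd38.

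The B cell list was highest in the same pair of libraries as Cd38, at 224 CPM in ligated and 113 CPM in unligated LSD1WT femur replicate 2, against 9.03 to 48.1 CPM elsewhere. Ighm, the heavy chain of IgM, made up 216 and 109 CPM of these sums. The part of other cells in the level of Cd38 was not tested.

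**Figure D2:**
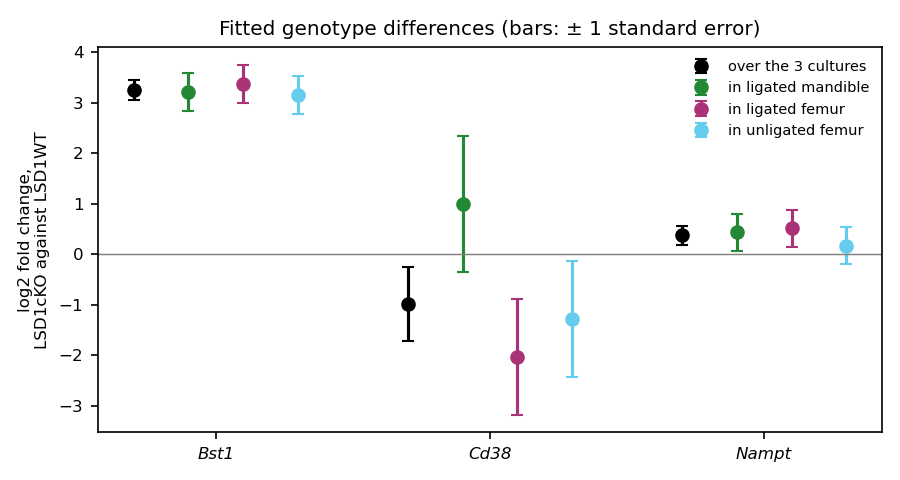
Fitted log2 fold changes of LSD1cKO against LSD1WT for Bst1, Cd38 and Nampt, over the 3 cultures and in each, with ± 1 standard error. Bst1 lay between 3.15 and 3.38 in all, Cd38 changed sign between mandible (0.99) and ligated femur (-2.04), and Nampt lay between 0.17 and 0.52.

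Nampt (ENSMUSG00000020572, chromosome 12) was the most abundant of the 3 genes, and it was lowest in mandible. The mandible libraries held 68.9 and 70.2 CPM in LSD1WT against 87.7 and 100.5 CPM in LSD1cKO. In ligated femur the LSD1WT libraries held 121.5 and 277 CPM and the LSD1cKO libraries 257 and 313 CPM. In unligated femur the LSD1WT libraries held 154 and 205 CPM and the LSD1cKO libraries 173 and 230 CPM. The genotypes did not overlap in mandible, where the ratio of means was 1.35, and overlapped in ligated femur (1.43) and in unligated femur (1.12). The fitted log2 fold change was 0.37 ± 0.19 over the 3 cultures, 0.44 ± 0.37 in mandible, 0.52 ± 0.37 in ligated femur and 0.17 ± 0.37 in unligated femur. Without LSD1WT replicate 2 the value in ligated femur was 1.23, and the ratio of means 2.35.

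Every ligated femur library had more Nampt than every mandible library of the same genotype, and the means stood at 2.87 to 1 in LSD1WT and 3.03 to 1 in LSD1cKO. Here too the LSD1WT mandible libraries include replicate 3, which is called femur in its library name. Without ligated femur replicate 2, which held 277 CPM, the ratio in LSD1WT was 1.75. Ligated exceeded unligated femur in both LSD1cKO libraries (1.42 times in the mean), while the LSD1WT libraries overlapped (1.11 times, and 0.791 times without the replicate 2 libraries). LSD1WT replicate 2 of the ligated femur, which held the most Nampt among LSD1WT libraries, also had the highest interferon sum of that genotype, 607 CPM.

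Per kilobase of exons, with 3317, 3890 and 5054 bases for Bst1, Cd38 and Nampt, the mean level in LSD1WT was 1.67, 0.167 and 29.5 CPM per kilobase. In LSD1cKO it was 16.0, 0.0632 and 38.3 CPM per kilobase. On this scale Nampt was the most and Cd38 the least abundant of the 3 genes in each of the 12 libraries. Across LSD1cKO libraries the ranges of Nampt, 17.3 to 62.0, and Bst1, 9.47 to 22.0 CPM per kilobase, overlapped, whereas those of Bst1 and Cd38 did not overlap in either genotype.

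The other protein-coding genes on either side did not pass the test. Upstream of Bst1, Cc2d2a had a log2 fold change of 0.80 ± 0.45 over the 3 cultures (edgeR adjusted p = 0.441) and Fbxl5, a subunit of an iron-regulated ubiquitin ligase, one of 0.16 ± 0.18 (adjusted p = 0.737 by edgeR). Fbxl5, whose exons overlap those of Bst1, was at 36.2 to 97.7 CPM in LSD1WT and 46.0 to 75.8 CPM in LSD1cKO libraries. Downstream of Cd38, Fgfbp1 had 0 counts in all 12 libraries and Prom1 had a log2 fold change of 0.06 ± 0.49 (edgeR adjusted p = 0.975). Around Nampt the values were -0.50 ± 0.62 for Pik3cg, -0.07 ± 0.16 for Ccdc71l, -0.45 ± 0.19 for Sypl and -0.71 ± 0.61 for Cdhr3, with edgeR adjusted p values of 0.763, 0.890, 0.283 and 0.639. Whether Bst1 differed from its neighbours was not tested.

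**Figure D3:**
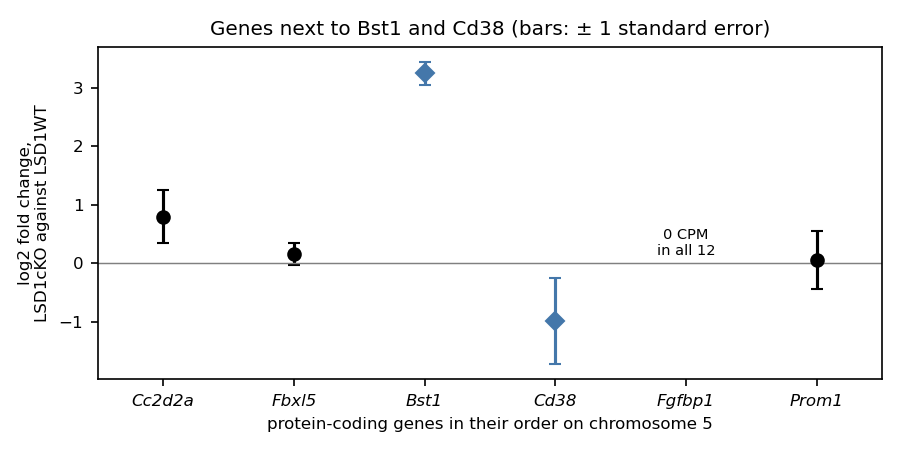
Log2 fold change over the 3 cultures, with ± 1 standard error, of the protein-coding genes around Bst1 and Cd38 in their order on chromosome 5. Bst1 (3.25) stood above Cc2d2a (0.80), Fbxl5 (0.16), Cd38 (-0.98) and Prom1 (0.06), and Fgfbp1 was not detected.

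Among 76 other genes of NAD metabolism and signalling, 60 were tested, and 8 of these were called higher and 0 lower in LSD1cKO over the 3 cultures, against 3.00% and 0.532% of all genes. At an unadjusted p under 0.05 the counts were 16 higher and 3 lower, beside 8.31% and 7.76% of all genes. DESeq2 called 14 higher and 1 lower, beside 5.34% and 2.76% of all genes. The median log2 fold change of the 60 genes was -0.01, with 29 positive and 31 negative, beside a median of -0.06 over all genes tested. All 8 genes were also called without both LSD1WT femur replicate 2 libraries, where the count was 22 higher and 5 lower of 61 tested, beside 14.4% and 9.75% of all genes. With the mouse as a random block in limma voom, 6 of the 8 were called and 2.48% of all genes, and Parp10 (adjusted p = 0.0926) and Parp12 (adjusted p = 0.113) were not. The number called rested on single libraries and fell to 3 when mandible LSD1cKO replicate 2 was left out, to 4 without either ligated femur LSD1cKO library or without mandible LSD1WT replicate 1, and to 5 without mandible LSD1WT replicate 3 or unligated femur LSD1cKO replicate 2. With mandible LSD1WT replicate 3 taken as femur it was 3.

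The calls fell mainly on the route that makes NAD from tryptophan and on PARP enzymes. Of the de novo list, 3 of 7 genes tested were called higher and the median log2 fold change was 1.72. Ido1, which opens tryptophan's ring in the first step, was at 0 to 0.535 CPM in LSD1WT and 1.24 to 3.42 CPM in LSD1cKO libraries (log2 fold change 2.85 ± 0.61, edgeR adjusted p = 0.0290). Kynu, which cleaves kynurenines, was at 0.414 to 1.95 and 1.58 to 13.1 CPM (2.14 ± 0.38, edgeR adjusted p = 0.0128). Haao, which makes the precursor of quinolinate, was at 0.356 to 1.66 and 1.53 to 3.95 CPM (1.75 ± 0.38, edgeR adjusted p = 0.0338). Ido1 did not overlap between the genotypes, and Kynu did not overlap within any culture, whereas Haao overlapped in unligated femur. At the other end of this list Kmo, which hydroxylates kynurenine, had a log2 fold change of -0.16 ± 0.49. The medians of Kmo, 1.30 CPM in LSD1WT and 2.16 CPM in LSD1cKO, went the other way, and its highest LSD1WT library held 14.8 CPM.

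**Figure D4:**
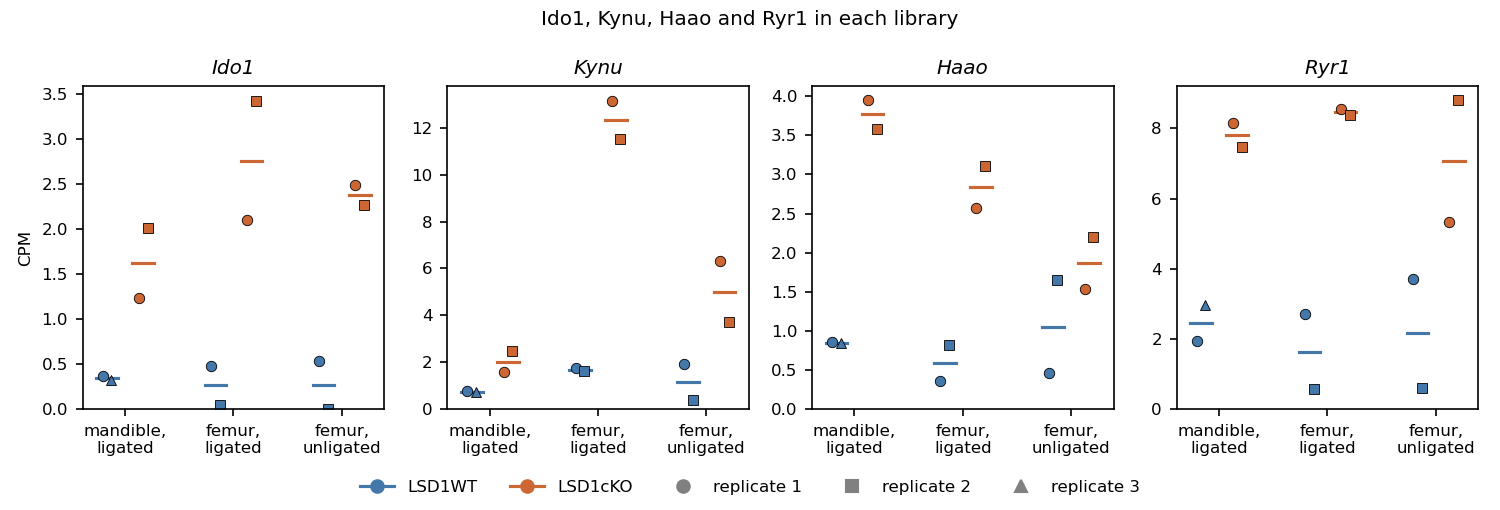
CPM of Ido1, Kynu, Haao and Ryr1 in each library by culture and genotype; symbols are libraries and bars are means of 2. Ido1 (at most 0.535 against at least 1.24 CPM) and Ryr1 (at most 3.70 against at least 5.35 CPM) did not overlap between the genotypes.

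Ryr1, a ryanodine receptor and so a channel that cyclic ADP-ribose is known to act on, was the called gene of the list of cyclic ADP-ribose and NAADP signalling (1 of 7 tested, median -0.09). It was at 0.564 to 3.70 CPM in LSD1WT and 5.35 to 8.80 CPM in LSD1cKO libraries, a log2 fold change of 1.90 ± 0.45 (edgeR adjusted p = 0.0480). The lowest value of that list belonged to Trpm2, the ADP-ribose gated cation channel, at -0.70 ± 0.70. Its medians, 3.07 CPM in LSD1WT and 3.51 CPM in LSD1cKO, went the other way from this value. Its highest library, LSD1WT replicate 2 of the unligated femur, held 25.3 CPM. Ryr2 and Ryr3, the other ryanodine receptors, were too low to be tested.

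The PARP family, which uses NAD to modify proteins with ADP-ribose, had 4 of 15 tested genes called higher, with a median of 0.03. The log2 fold changes were 1.27 ± 0.22 for Parp9, 0.84 ± 0.17 for Parp12, 0.76 ± 0.14 for Parp8 and 0.66 ± 0.14 for Parp10, with edgeR adjusted p values of 0.0124, 0.0222, 0.0131 and 0.0274. Parp9 was at 14.5 to 113 CPM in LSD1WT and 28.2 to 228 CPM in LSD1cKO libraries. Parp1, the main DNA damage-activated member, had the lowest value, -0.44 ± 0.22 (edgeR adjusted p = 0.367). Ido1, Parp9, Parp10 and Parp12 are known interferon-inducible genes, and the interferon sum rose with them (9 of 10 called). Its part in these values was not tested.

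The lists closest to the enzymes themselves had no gene called. The other ectoenzymes had 0 of 4 tested called of 11 listed (median -0.97, 0 at an unadjusted p under 0.05), from Sarm1, an intracellular NAD glycohydrolase, at 0.00 ± 0.38 to Enpp1, a surface pyrophosphatase, at -1.75 ± 0.86. Enpp1 was at 0.939 to 37.3 CPM in LSD1WT, highest in unligated femur replicate 2, and at 0.711 to 4.47 CPM in LSD1cKO libraries. Its medians, 1.68 in LSD1WT and 2.60 CPM in LSD1cKO, went the other way from its fitted value. So did those of Entpd1, 9.37 and 19.6 CPM (log2 fold change -0.96 ± 0.95), whose highest LSD1WT library, ligated femur replicate 2, held 303 CPM. Osteoclast genes were nearly absent in both of these replicate 2 libraries, and their part in the fitted values was not tested. The medians of Nt5e, 0.868 and 0.408 CPM, went with its value (-0.98 ± 0.47). Entpd1 and Nt5e were named after their values were seen. The ecto-ADP-ribosyltransferases Art1, Art2a, Art2b, Art3, Art4 and Art5 were all too low to be tested. In the salvage list besides Nampt, 0 of 6 were called (median -0.07), with Pnp, a purine nucleoside phosphorylase, highest at 0.97 ± 0.26 (edgeR adjusted p = 0.0729) and Nmnat1, which makes NAD from nicotinamide mononucleotide, lowest at -0.45 ± 0.32. Pnp2, a close copy of Pnp that was chosen after its values were seen, was at 0.359 to 1.34 and 3.81 to 12.9 CPM (log2 fold change 3.10 ± 0.41, edgeR adjusted p = 0.00384), and reads of the pair may be split between them.

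Sirtuins, the NAD-dependent deacylases, had 0 of 7 called, and their values ran only from -0.27 ± 0.28 for Sirt2 to 0.13 ± 0.16 for Sirt4. The medians of Sirt2, 59.6 CPM in LSD1WT and 72.3 CPM in LSD1cKO, went the other way from its fitted value. The NADP and mitochondrial list had 0 of 5 called (median -0.18), between Nadk, the cytosolic NAD kinase, at 0.54 ± 0.20 and Gja1, the gap junction protein connexin 43, at -1.08 ± 0.30 (edgeR adjusted p = 0.0922). Of the adenosine and purinergic genes 0 of 9 were called (median 0.03), from Adora2a, an adenosine receptor, at 2.02 ± 0.66 (edgeR adjusted p = 0.148) to P2rx7, an ATP-gated channel on which ecto-ADP-ribosylation acts, at -0.20 ± 0.53. For P2rx7 too the medians, 29.3 CPM in LSD1WT and 53.8 CPM in LSD1cKO, went the other way, and its highest LSD1WT library held 224 CPM.

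**Figure D5:**
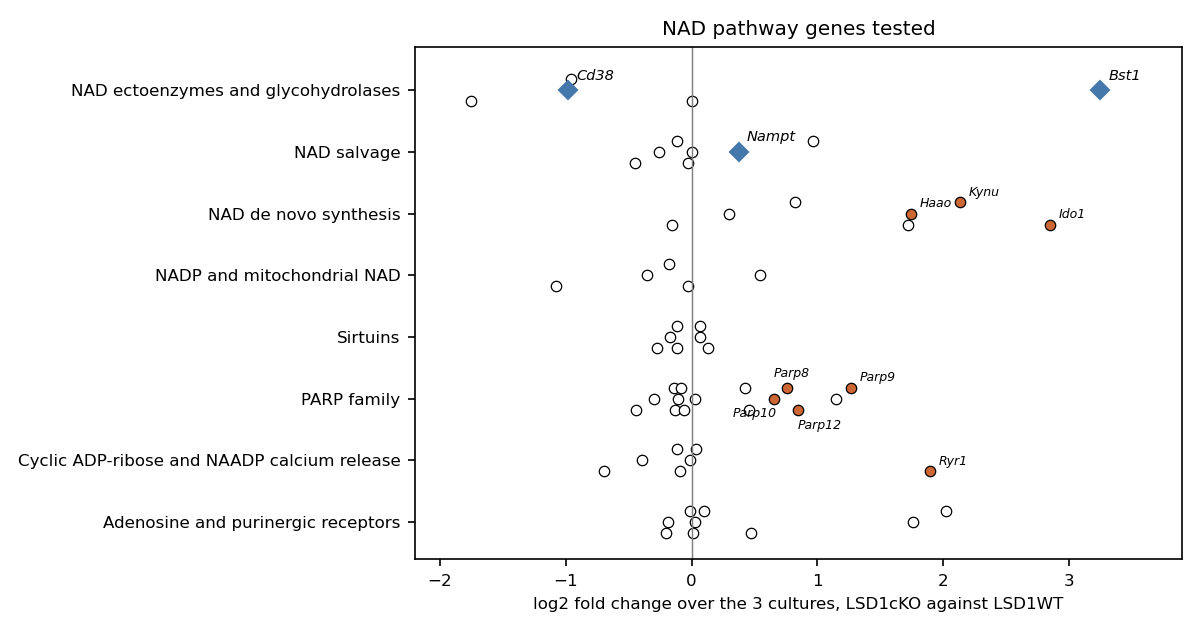
Log2 fold change over the 3 cultures of the 60 other NAD pathway genes tested, by list (circles; filled, adjusted p under 0.05 by edgeR), with Bst1, Cd38 and Nampt as diamonds in their lists. The 8 filled genes lie in the de novo, PARP and calcium release lists, and Bst1 (3.25) lies above every circle.

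Within single cultures the pathway genes gave few calls, as did all genes. In ligated mandible 0 of 60 passed the edgeR test and 0% of all genes did, while at an unadjusted p under 0.05 the count was 3 higher and 0 lower, beside 4.82% of all genes. In ligated femur 0 of 60 passed, beside 0.00648% of all genes (1 gene), and 12 were higher and 2 lower at an unadjusted p under 0.05, beside 6.88% of all genes. In unligated femur 0 of 60 passed, beside 0% of all genes, and the unadjusted counts were 9 higher and 2 lower, beside 4.95% of all genes. DESeq2 called 0, 6 and 0 pathway genes in these cultures, beside 0.947%, 1.43% and 0.807% of all genes. Whether the genotype difference of a pathway gene varied between cultures was not tested.

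Across libraries, 6 of the 60 pathway genes were higher in every LSD1cKO library than in every LSD1WT library and 0 were lower, beside 1.98% and 0.797% of all genes. They were Ido1, Ido2, Afmid, Ryr1, Adora2a and P2ry14, of which Ido2, Afmid and P2ry14 were named after their values were seen. P2ry14, the receptor for UDP-glucose, was at 4.80 to 41.0 CPM in LSD1WT and 46.2 to 125 CPM in LSD1cKO libraries.

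The genes whose log2 CPM over the 12 libraries was most like that of Bst1 were Mmp25 (Pearson's r 0.997), Ly6i (0.981), Crip1 (0.980), H2-Q7 (0.977) and Zfp287 (0.976). For Cd38 they were Tgif1 (0.967), Ier3 (0.959), Nsun6 (0.953), Ctla2a (0.95) and Vsig10l (0.944), and for Nampt Mx2 (0.988), Trafd1 (0.987), Trim12a (0.984), Trim12c (0.983) and Ms4a6c (0.983). Ly6i, H2-Q7, Ctla2a, Trim12a and Trim12c belong to families with close copies, so their counts are uncertain. Between the genes themselves r was -0.14 for Bst1 and Cd38, 0.41 for Bst1 and Nampt and 0.67 for Cd38 and Nampt. These values describe 12 libraries that share genotype, site and in part the mouse, and are not tests.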

How the data were processed

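Preosteoclast RNA of 12 libraries was analysed from the deposited table of raw read counts per Ensembl gene, which the authors had neither normalized nor filtered. HISAT2 2.1.0, FastQC, featureCounts, edgeR and GRCm39 are named in the submitters' processing notes. In R 4.3.3, edgeR 4.0.16 was used with filterByExpr (15425 genes), TMM scaling and a quasi-likelihood test. 1 model had culture and genotype as terms, and another had a coefficient for each of the 6 conditions. P values were adjusted over all genes tested (Benjamini-Hochberg, 0.05). Log2 fold changes are LSD1cKO against LSD1WT, with edgeR's default prior count, and their standard errors were derived from the test statistic. The log2 CPM used for correlations had a prior count of 2. Alternatives were RLE scaling, no filter beyond 1 count, DESeq2 1.42.0, voom in limma 3.58.1 (mouse as random block), a replicate block, each library left out, each culture alone, and the mandible library with conflicting labels as femur. Leaving out both femur LSD1WT replicate 2 libraries and summing the mandible LSD1WT libraries were added after seeing the data. Apart from the mouse labels in the titles, nothing says that libraries are separate cultures, so p values measure the spread between these libraries.

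Bst1, Cd38 and Nampt, the NAD pathway lists and the marker lists were chosen with earlier results of these data known. Named genes were those 3, Kdm1a and Lyz2, pathway genes called in any comparison, the highest and lowest gene of each list, the 5 genes most alike by Pearson's r, and 2 neighbours on each side (order from RefSeq genes of GRCm38.p6). Coding sequences and exon lengths came from GENCODE release vM21 (GRCm38) and were compared with Biopython 1.88 and blastn 2.17.0. Exact intervals were computed with SciPy 1.17.1 in Python 3.11.15.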

Additional observations from a re-analysis of the deposited data

Results flagged for a closer look

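Among the 6 LSD1WT libraries, Cd38 in ligated femur replicate 2 lay far from the others at 2.36 CPM (46 counts), with the next library at 0.828 CPM. Its gap was 0.661 of the group's range, above Dixon's limit of 0.625, which served only to mark the value and not as a test. About 1 in 20 uniform groups is marked in this way by chance, and 6 groups were examined (3 genes in 2 genotypes). That rate does not hold here, because each group mixes 3 cultures and the marked library nearly lacked osteoclast genes.

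The genotype difference of Cd38 had opposite directions between cultures. The log2 fold change was 0.99 in mandible, where both LSD1cKO libraries exceeded both LSD1WT libraries, and -1.28 in unligated femur, where both were below. In ligated femur it was -2.04, with overlapping libraries. This difference between cultures was not tested, and it rests on 1 to 46 counts per library.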

How the results depend on the processing

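For Bst1, the log2 fold change stayed positive under every alternative run. Leaving out 1 library gave 3.17 to 3.47 over the 3 cultures, 3.00 to 3.43 in mandible, 3.13 to 3.76 in ligated femur and 2.72 to 3.85 in unligated femur, and leaving out both femur LSD1WT replicate 2 libraries gave 2.72 in unligated femur. For Cd38 the ranges were -1.20 to 0.048, 0.43 to 2.16, -2.92 to 1.53 and -1.62 to -0.71, and without both replicate 2 libraries it was 0.49 over the cultures and 1.61 in ligated femur. The positive values of the ligated femur and of the 3 cultures came from leaving out its LSD1WT replicate 2, which held 46 of the 49 counts. For Nampt the ranges were 0.29 to 0.52, 0.35 to 0.54, 0.13 to 1.23 and -0.0051 to 0.40, the negative one without unligated femur LSD1cKO replicate 2. In ligated femur Nampt was 0.95 with mandible LSD1WT replicate 3 as femur and 1.32 without both replicate 2 libraries.

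Of the pathway genes, 8 were called over the 3 cultures, 15 with DESeq2, 3 with mandible LSD1WT replicate 3 as femur, 27 without both replicate 2 libraries (24.2% of all genes), 5 with the mandible LSD1WT libraries summed and 3 to 10 with 1 library left out. In mandible the 0 calls became 25 with its 4 libraries alone (37.7% of all genes) and 8 without both replicate 2 libraries (5.85%). In ligated femur they became 1 without the filter, 6 with DESeq2 and 18 without both replicate 2 libraries (9.35% of all genes), and in unligated femur 1 without both. With 1 library left out they were 0 to 1 in each femur culture. The causes were not tested. With the mouse as a random block, 6 of the 8 were called and Bst1 was 3.28. The replicate block gave 8 calls, 6 of them shared, and Bst1 3.30, Cd38 -0.97 and Nampt 0.34 over the cultures. The differences between replicates 1 and 2 correlated between the genotypes at -0.0226 in ligated and 0.224 in unligated femur. LSD1cKO mandible and ligated femur, which came from the same mice, gave only 0.0260. The measure can therefore miss a shared origin and cannot decide whether same-numbered libraries share more than a number. Depth limits Cd38, where 3 counts equal 0.0927 to 0.154 CPM.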
